A study of Rattus norvegicus with 47 samples.

Results

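The last age step of the study in socially reared animals, Soc P80 against Soc P60, is described here for the rat medial prefrontal cortex (Soc, socially reared; P, postnatal day). It rests on 12 of the 47 arrays, chosen by their labels alone, with 6 arrays of Soc P80 and 6 of Soc P60. The study measured gene expression with 1-colour Affymetrix arrays in outbred Wistar rats that were reared socially or in isolation (Iso), with tissue taken at P30, P40, P60 or P80. The groups used below were Soc P80 (socially reared, P80), Soc P60 (socially reared, P60), Iso P80 (isolation-reared, P80, 6 arrays) and Iso P60 (isolation-reared, P60, 6 arrays), and all of them were Wistar rats with no drug or genetic change named in the labels. The age series also drew on Soc P30, Soc P40, Iso P30 and Iso P40. The labels give no sex, batch, hybridisation date or time of day, and leave unsaid whether each sample is a different animal. The p-values therefore describe spread among the arrays of a group, part or all of which could be technical.

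The medial prefrontal cortex serves working memory, social behaviour and the control of emotion, and it is among the last cortical regions to mature. In rodents its synapses are remodelled, its parvalbumin interneurons gain their adult properties and its axons go on gaining myelin through adolescence. Immediate early genes such as Arc and Fos are transcribed within minutes of neuronal activity, so their level in tissue follows the state of the animal shortly before death as well as its age.

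The arrays of each group lay close together, but the whole groups did not fall in order of age. The distance between arrays (root mean square over 12149 probe sets above the signal filter, log2) was 0.254 between the means of Soc P80 and Soc P60. The mean of Soc P60 lay nearer to Iso P80 (0.167) than to any other group of the 8. Each Soc P60 array lay 0.202 to 0.213 from the mean of Iso P80 and 0.274 to 0.291 from the mean of Soc P80. Soc P80 arrays lay 0.141 to 0.196 from their own mean, 0.276 to 0.317 from that of Soc P60 and 0.287 to 0.312 from that of Iso P80. Array 6 of Soc P80 was the one farthest from its own mean, and without it 5092 probe sets were called in place of 5412. A swap of labels between groups was not tested, and directions are those of the arrays as labelled.

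**Figure D1:**
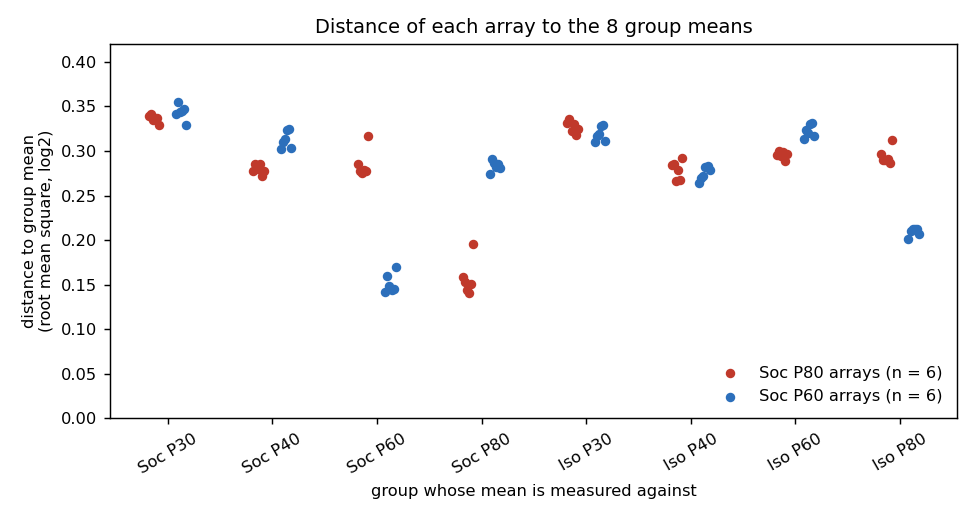
Distance of each Soc P80 array (red, left) and each Soc P60 array (blue, right) to the means of the 8 groups (root mean square of log2 values, vertical axis). The Soc P60 arrays lie at 0.202 to 0.213 from the Iso P80 mean and at 0.274 to 0.291 from the Soc P80 mean.

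Of 5 quality measures of the arrays, 1 differed between the groups. The 3' to 5' ratio of the hexokinase control probe sets, which rises as RNA degrades, averaged 2.44 ± 0.28 in Soc P80 and 3.20 ± 0.45 in Soc P60 (SD, n = 6 each, exact two-sided permutation p = 0.00866, adjusted p = 0.0433 over 5 measures, smallest possible p = 0.00216). The Gapdh ratio was 1.89 ± 0.091 in Soc P80 and 2.03 ± 0.15 in Soc P60 (exact p = 0.0693, adjusted p = 0.115), with 2.33 on array 6 of Soc P60. Without that array, 5241 probe sets were called. With the Gapdh ratio as a covariate 5516 were called, of which 4905 were among the 5412 of the main fit. The actin ratio was 4.97 ± 0.48 in Soc P80 and 4.74 ± 0.38 in Soc P60 (exact p = 0.374, adjusted p = 0.405). The hexokinase ratio was not used as a covariate. The part of RNA quality in the genes below was not tested beyond the Gapdh covariate.

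Between P60 and P80 a large share of the cortical transcriptome moved, mostly by small amounts. Of the 12149 probe sets tested, 5412 were called (44.5%, limma, Benjamini-Hochberg adjusted p under 0.05), with 2627 higher (21.6%) and 2785 lower (22.9%) in Soc P80. The median size of a called difference was 0.284 log2, against a median standard error (SE) of 0.076. Differences over 0.5 log2 were fewer, with 595 probe sets (4.9%), of which 367 were higher (3.02%) and 228 lower (1.88%). All differences are Soc P80 minus Soc P60 on the log2 scale of the deposited signal, and adjusted p-values come from limma over all 12149 probe sets. In bulk tissue fewer cells of a type and less RNA per cell cannot be told apart.

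The largest rises were those of Anp32a, R3hdm2, Pacsin1, Scaf1 and Epn1. Anp32a, a nuclear inhibitor of histone acetylation and of protein phosphatase, had log2 signals of 7.62, 7.84 and 7.96 (lowest, median and highest array) in Soc P80, against 6.26, 6.39 and 6.46 in Soc P60. Its rise of 1.43 (SE 0.097, adjusted p = 1.21e-16), or 2.69-fold, was the largest among all called probe sets, and the groups did not overlap. Pacsin1, which bends membranes during vesicle retrieval in neurons, ran over 6.95, 7.00 and 7.12 in Soc P80 and 5.49, 5.65 and 5.84 in Soc P60 (1.35, SE 0.087, adjusted p = 2.69e-17). Epn1, an adaptor of clathrin-mediated endocytosis, had 7.37, 7.55 and 7.67 in Soc P80, against 5.95, 6.25 and 6.46 in Soc P60 (1.32, SE 0.087, adjusted p = 4.84e-17). The arrays of both groups were fully apart for each of these genes.

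Camk2n1, an inhibitor of the calcium and calmodulin-dependent kinase CaMKII, rose by 1.28 through one probe set (SE 0.065, adjusted p = 8.27e-21), while its other probe set fell by 0.23 (adjusted p = 0.0041). Such opposite calls also stood in Mapre3, a microtubule end-binding protein (0.87 against -0.22), in Dlg4, which encodes the postsynaptic scaffold PSD-95 (0.82 against -0.28), and in Flywch1 (1.01 and 0.48 against -0.30), so no single direction is given for these genes. The remaining members of the 25 largest rises included R3hdm2 (1.36), Scaf1 (1.32), Ptov1 (1.24) and Thoc2, a subunit of the mRNA export complex THO (1.09). Fbxw7, the substrate receptor of a ubiquitin ligase, rose through both of its probe sets (1.06 and 1.02). Fis1, which takes part in mitochondrial fission, rose by 1.02 (SE 0.089, adjusted p = 3.54e-13). Ina, a neuronal intermediate filament, rose by 0.95 through one probe set, and another showed -0.02 (adjusted p = 0.637). Further rises were those of Tubb3, the neuronal beta-tubulin (0.83), Stip1, a co-chaperone of Hsp70 and Hsp90 (0.81), Ddx6, an RNA helicase of processing bodies (0.85 and 0.55 by its probe sets), and Cdh22, a cadherin (0.82). In all 25 the arrays of the groups did not overlap, against 26.8% of the 12149 probe sets, but the genes were taken for their size of change, so this count supports nothing further.

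**Figure D2:**
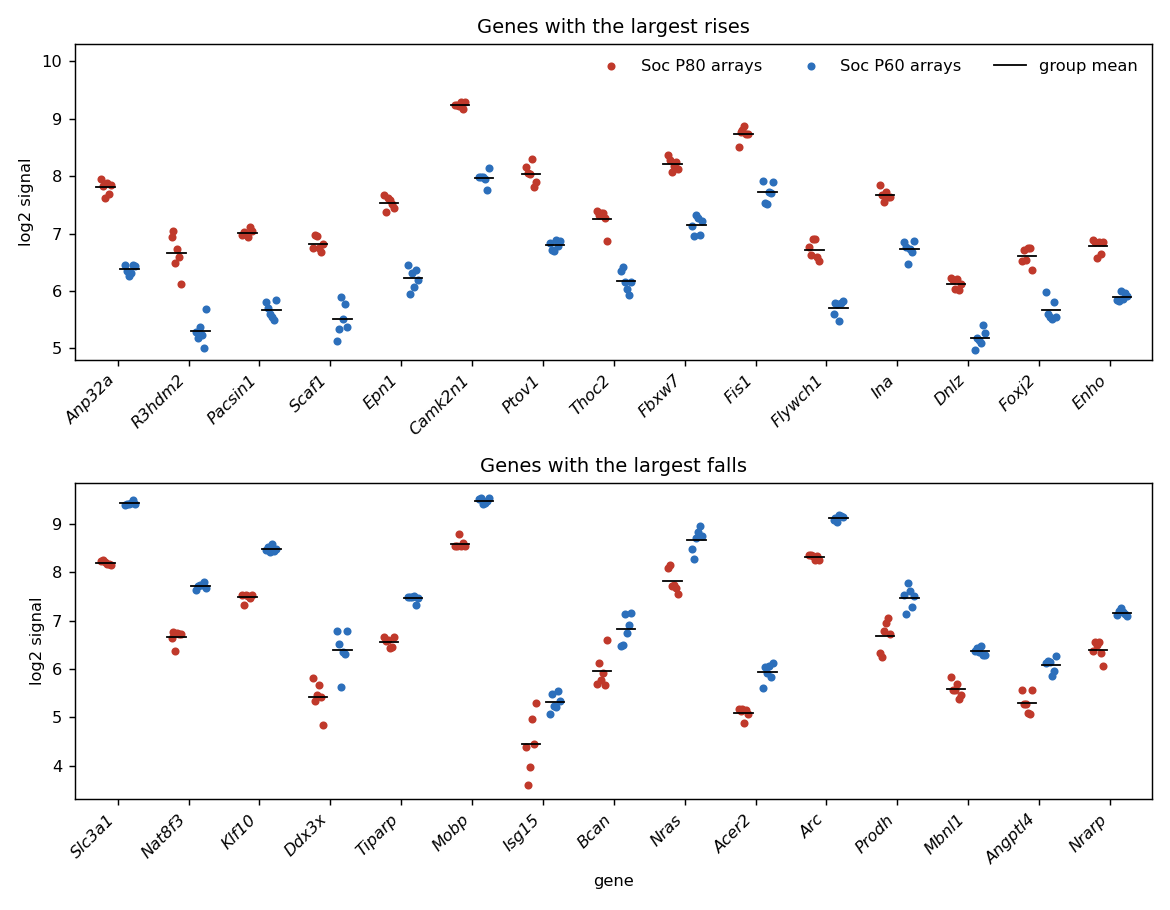
Log2 signal of each array for the 15 genes with the largest rises (top) and the 15 with the largest falls (bottom), Soc P80 in red on the left and Soc P60 in blue on the right, with group means as bars. Anp32a lies between 7.62 and 7.96 in Soc P80 and between 6.26 and 6.46 in Soc P60, and Slc3a1 between 8.14 and 8.24 in Soc P80 and between 9.40 and 9.50 in Soc P60.

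The largest falls of named genes were those of Slc3a1, Nat8f3 and Klf10. Slc3a1, the heavy subunit of a transporter of cystine and basic amino acids, had log2 signals of 8.14, 8.19 and 8.24 in Soc P80, against 9.40, 9.41 and 9.50 in Soc P60 (-1.23, SE 0.044, adjusted p = 1.61e-26). The spread within either group was small beside the gap. Nat8f3, of an N-acetyltransferase family, ran over 6.38, 6.72 and 6.77 in Soc P80 and 7.63, 7.72 and 7.79 in Soc P60 (-1.06, SE 0.054, adjusted p = 9.54e-21). Klf10, a zinc-finger repressor induced by growth signals, had 7.31, 7.51 and 7.54 in Soc P80 and 8.42, 8.47 and 8.58 in Soc P60 (-1.002, SE 0.065, adjusted p = 3.07e-17). Tiparp, a mono-ADP-ribosyltransferase induced through the aryl hydrocarbon receptor, fell by 0.90 (SE 0.067, adjusted p = 2.91e-15). Slc3a1 was the named gene that fell furthest, and 5 called probe sets without a single gene symbol fell further, down to -1.93.

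Mobp, a protein of compact myelin, fell by 0.89 through one probe set (adjusted p = 1.59e-18), while its others showed 0.11 and -0.08 and did not pass. Nras, a small GTPase of growth factor signalling, fell through both of its probe sets (-0.85 and -0.24). Gnas, which encodes the stimulatory G protein alpha subunit, fell by 0.77 through one probe set (adjusted p = 6.3e-08), and its other showed 0.14 without passing. The list of falls went on with Abca1, an exporter of cholesterol (-0.73), Angptl4, an inhibitor of lipoprotein lipase (-0.78), Prodh, which degrades proline in mitochondria (-0.79), Acer2, a ceramidase (-0.83), Nrarp, a feedback inhibitor of Notch (-0.77) and Klf2, a transcription factor known from endothelium (-0.77, with another probe set at -0.21 that did not pass). Ddx3x, an RNA helicase, showed -0.97, Bcan, the perineuronal proteoglycan brevican, -0.86, and Id4, an inhibitor of basic helix-loop-helix factors, -0.76. All 3 passed the test with overlapping arrays. The other, brighter probe set of each did not pass, at -0.04 in Ddx3x, 0.14 in Bcan and -0.26 in Id4. Of the 25 largest falls, 21 had groups that did not overlap, against 26.8% of the 12149 probe sets. These genes too were taken for their size of change, so this count supports nothing further.

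Immediate early genes, which neurons and glia transcribe quickly after stimulation, were mostly lower in Soc P80. Of 17 tested genes of a list of 34, 11 fell, 2 rose and 4 did not pass, with a median of -0.21, against 23.8% lower and 22.3% higher among all 7898 genes tested through their brightest probe set (median -0.0087). This list and all those below were chosen with earlier results of these data known. Their counts beside the shares of all genes are therefore a description. Arc, whose protein takes AMPA receptors from the synapse, had log2 signals of 8.26, 8.33 and 8.35 in Soc P80, against 9.03, 9.13 and 9.18 in Soc P60 (-0.81, SE 0.038, adjusted p = 5.41e-22). Egr2, a zinc-finger transcription factor, ran over 7.10, 7.19 and 7.30 in Soc P80 and 7.77, 7.92 and 8.02 in Soc P60 (-0.72, SE 0.068, adjusted p = 4.56e-12). Neither gene showed overlap between the groups. Dusp1, a phosphatase that switches off MAP kinases, had 8.64, 8.67 and 8.72 in Soc P80 and 9.33, 9.35 and 9.43 in Soc P60 (-0.68, SE 0.068, adjusted p = 2.04e-11). Nr4a1, an orphan nuclear receptor, had 8.12, 8.17 and 8.25 in Soc P80 and 8.70, 8.72 and 8.76 in Soc P60 (-0.54, SE 0.04, adjusted p = 1.51e-15). Again the arrays were fully apart. Nr4a3, of the same family, fell through both of its probe sets (-0.75 and -0.21).

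Other transcription factors of the list moved less. Fos, a subunit of AP-1, had log2 signals of 7.97, 8.20 and 8.45 in Soc P80 and 8.38, 8.54 and 8.61 in Soc P60, with overlapping arrays (-0.30, SE 0.092, adjusted p = 0.0068). Egr1 fell by 0.10 (adjusted p = 0.00681), Egr4 by 0.45 (adjusted p = 0.00158), Ier5 by 0.21 (adjusted p = 5.04e-06) and Srf, the serum response factor that drives many of these genes, by 0.14 (adjusted p = 0.0109). The AP-1 subunits Jund and Junb rose, by 0.18 (adjusted p = 0.00125) and 0.49 (adjusted p = 0.0119). Junb was no longer called without array 1 of Soc P60 (adjusted p = 0.0638). Not passing were Jun (-0.13), Ptgs2 (-0.13), Dusp6 (0.04) and Homer1 (0.02 through its brightest probe set). Other probe sets of Homer1 fell by 0.45 (adjusted p = 8.08e-06) and 0.24 (adjusted p = 0.0499). The remaining one did not pass (-0.03). Through the probe set of smallest p, 12 genes of the list fell. Jun passed without array 4 of Soc P80 (adjusted p = 0.0338) or array 2 of Soc P60 (adjusted p = 0.0457), with only the groups compared (adjusted p = 0.0141) and with the Gapdh covariate (adjusted p = 0.0202). Ptgs2 passed with that covariate (-0.23, adjusted p = 0.0226).

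The promoters of the called immediate early genes are shown for the response elements through which activity is known to reach them. Windows of 250 bases before the start came from RefSeq (assembly GRCr8) for 7 of the 11 genes that fell. Searched on both strands, the full cyclic AMP response element TGACGTCA stood in 1 of the 7 (1.59% of all 33469 promoters), and its core TGACG, which the full element contains, in 6 (18.2%). The CArG box, the site of serum response factor, stood in 3 (1.5%), and the E-box CACGTG in 1 (5.59%), while the Egr site GCGTGGGCG stood in 0 (0.478%). Both genes that rose, Jund and Junb, held the core, and Jund also held the full element and the Egr site. A match is a description of letters in this window and no evidence of binding. Below, capitals mark the CArG box in Egr2 (chr20:21054442-21054691, minus strand) and Srf (chr9:21923826-21924075, plus strand) and the full cyclic AMP response element in Dusp1 (chr10:17184603-17184852, plus strand), each written 5' to 3' on the strand of the gene.
Egr2: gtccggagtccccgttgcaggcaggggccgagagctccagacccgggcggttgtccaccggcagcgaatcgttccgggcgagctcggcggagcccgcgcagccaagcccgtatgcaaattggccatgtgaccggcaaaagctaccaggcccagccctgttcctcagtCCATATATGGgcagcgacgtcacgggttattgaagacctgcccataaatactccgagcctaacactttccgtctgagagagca
Srf: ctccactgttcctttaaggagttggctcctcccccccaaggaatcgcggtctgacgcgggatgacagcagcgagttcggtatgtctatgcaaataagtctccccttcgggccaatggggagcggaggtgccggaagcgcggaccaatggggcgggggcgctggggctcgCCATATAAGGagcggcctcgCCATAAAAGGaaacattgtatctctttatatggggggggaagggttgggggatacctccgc
Dusp1: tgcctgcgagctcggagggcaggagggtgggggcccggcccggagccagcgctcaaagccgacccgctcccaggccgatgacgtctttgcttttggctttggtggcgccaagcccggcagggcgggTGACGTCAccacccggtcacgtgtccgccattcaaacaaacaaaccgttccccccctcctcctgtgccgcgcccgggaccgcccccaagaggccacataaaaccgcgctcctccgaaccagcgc

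Of the genes of the interferon response and of antigen presentation, which mark antiviral and immune signalling, 16 of a list of 46 were tested, and 9 fell, 2 rose and 5 did not pass (median -0.26), against 23.8% lower and 22.3% higher among all genes. Many of them were dim: with the filter at the 60th percentile 3 were tested, of which 2 fell and 1 rose. The filter took the mean over all groups, and the list's mean level was 7.44 in Soc P40, 6.48 in Soc P60 and 6.28 in Soc P80. Isg15, Lgals3bp and Ifit2, with means below the filter level in both groups compared, are among the 9 that fell. The list count is thus given as a description. Irf7, the transcription factor that amplifies the type I interferon response, had log2 signals of 5.33, 5.42 and 5.65 in Soc P80, against 5.81, 5.94 and 6.13 in Soc P60 (-0.50, SE 0.082, adjusted p = 2.1e-06). Isg15, a ubiquitin-like protein induced by interferon, ran over 3.60, 4.42 and 5.30 in Soc P80 and 5.07, 5.28 and 5.55 in Soc P60 (-0.87, SE 0.17, adjusted p = 4.18e-05). Irf7 did not overlap between the groups, but each of its Soc P80 arrays lay below the filter level of 5.72. Isg15 overlapped and was widely spread in Soc P80. Every array of both groups lay below the filter level of 5.72 for Isg15, which was kept through its level in other groups (mean 7.64 in Soc P40), so the size of its difference is uncertain. B2m, the light chain of class I molecules, fell by 0.24 (adjusted p = 7.69e-07), and its second probe set by 0.19. The class I genes RT1-T24-3 and RT1-T24-4 showed -0.43 (adjusted p = 0.000294) and -0.61 (adjusted p = 0.032), and RT1-S3 showed -0.22 (adjusted p = 0.0434). Class I genes of the rat are near-identical copies, so their probe sets may share signal.

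Lgals3bp, a secreted glycoprotein, fell by 0.61 (adjusted p = 0.000292), Ifit2, an inhibitor of viral translation, by 0.38 (adjusted p = 0.00426) and Irf9, the DNA-binding part of the ISGF3 complex, by 0.27 (adjusted p = 0.0256). Lgals3bp and Ifit2 had means below the filter level in both groups. Psmb10, a subunit of the immunoproteasome, went the other way, with log2 signals of 6.82, 6.89 and 7.05 in Soc P80 and 6.07, 6.21 and 6.44 in Soc P60 (0.68, SE 0.081, adjusted p = 1.86e-09). Ifi27 rose as well (0.28, SE 0.035, adjusted p = 6.77e-09), with no overlap in either gene. Not passing were Stat2 (0.19), Rsad2 (-0.27), Ifitm3 (0.08), Parp14 (0.07) and Bst2 (-0.0042). The call of RT1-T24-4 was lost on leaving out array 6 of Soc P80 or array 3, 4 or 5 of Soc P60 (adjusted p from 0.0536 to 0.0916). That of Irf9 was lost without array 4 or 6 of Soc P80 or array 1 or 5 of Soc P60 (adjusted p from 0.0587 to 0.0743), and with the Gapdh covariate (adjusted p = 0.0645). RT1-S3 lost its call without array 1, 2, 3 or 4 of Soc P80 or array 3, 4, 5 or 6 of Soc P60 (adjusted p from 0.0646 to 0.0953), with no filter (adjusted p = 0.0611) and with the Gapdh covariate (adjusted p = 0.105). Stat2 passed without array 3 of Soc P80 (adjusted p = 0.0453) or array 5 of Soc P60 (adjusted p = 0.0475), and with the Gapdh covariate (adjusted p = 0.0372).

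The interferon-stimulated response element, through which interferon reaches its target genes, stood in the 250-base windows of 4 of the 7 genes that fell and had a promoter in the table, and in both that rose, against 3.41% of all promoters. It was searched on both strands. The sequences below show it in a gene that fell, where it reads on the opposite strand (Irf7, chr1:205800024-205800273, minus strand), in another that fell (Lgals3bp, chr10:104127849-104128098, minus strand) and in one that rose (Psmb10, chr19:50743293-50743542, minus strand), with the element in capitals, in 5' to 3' order on the strand of the gene. The element was thus present in genes of either direction.
Irf7: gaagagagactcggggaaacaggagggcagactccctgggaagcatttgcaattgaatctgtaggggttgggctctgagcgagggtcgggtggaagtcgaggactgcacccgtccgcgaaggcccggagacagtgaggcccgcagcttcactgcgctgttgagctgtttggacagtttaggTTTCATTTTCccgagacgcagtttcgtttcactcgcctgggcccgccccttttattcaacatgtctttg
Lgals3bp: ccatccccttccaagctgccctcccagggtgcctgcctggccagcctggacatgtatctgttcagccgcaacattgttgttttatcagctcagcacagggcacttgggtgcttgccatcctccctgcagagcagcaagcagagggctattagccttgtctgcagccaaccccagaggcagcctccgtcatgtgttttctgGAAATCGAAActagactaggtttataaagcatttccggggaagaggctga
Psmb10: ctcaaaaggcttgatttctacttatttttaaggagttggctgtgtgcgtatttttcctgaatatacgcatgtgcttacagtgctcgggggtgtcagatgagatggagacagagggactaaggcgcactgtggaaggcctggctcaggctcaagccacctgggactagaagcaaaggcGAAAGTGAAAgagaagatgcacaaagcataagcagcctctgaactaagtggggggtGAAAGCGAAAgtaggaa

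The step sat differently in the age course of these genes. Mean log2 signals of Egr2 in socially reared rats were 7.51, 7.67, 7.91 and 7.19 at P30, P40, P60 and P80, and those of Dusp1 were 8.95, 9.05, 9.36 and 8.68. Arc was at 9.06, 9.30, 9.12 and 8.31 and Klf10 at 8.52, 8.05, 8.48 and 7.48, so that each of these was lowest at P80. Irf7 was at 6.20, 8.28, 5.95 and 5.45, and Isg15 at 5.68, 7.64, 5.31 and 4.44. For both interferon genes P40 stood far above the other ages, and the fall after P60 was the smaller part of the course.

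**Figure D3:**
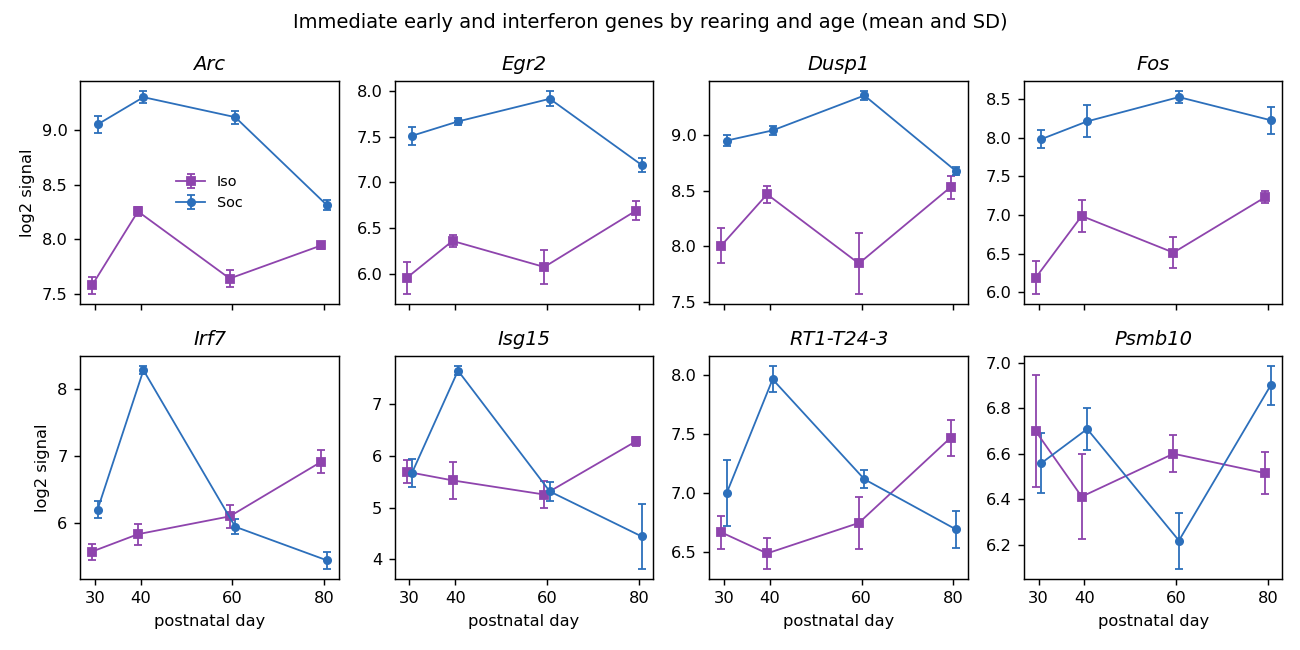
Mean log2 signal with SD (5 or 6 samples per point) of 4 immediate early genes (top) and 4 interferon or antigen presentation genes (bottom) by postnatal day, in isolation-reared (purple squares) and socially reared rats (blue circles). Between P60 and P80 Arc fell by 0.81 in Soc and rose by 0.30 in Iso.

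Genes of the synapse rose more often than they fell, where all genes stood at 22.3% higher and 23.8% lower. Of 39 presynaptic vesicle genes 15 rose and 5 fell (median 0.09), and of 30 postsynaptic scaffold and signalling genes 14 rose and 4 fell (median 0.17), or 7 fell with quantile normalization or through the probe set of smallest p. Sv2a, a vesicle glycoprotein, had log2 signals of 8.51, 8.55 and 8.69 in Soc P80, against 7.84, 8.004 and 8.10 in Soc P60 (0.58, SE 0.053, adjusted p = 1.6e-12). Camk2a, the alpha subunit of CaMKII and a core protein of the postsynaptic density, had 10.29, 10.37 and 10.47 in Soc P80, against 9.67, 9.73 and 9.77 in Soc P60 (0.65, SE 0.037, adjusted p = 5.19e-19). Both genes were higher in every Soc P80 array than in any Soc P60 array. The vesicle SNARE Vamp2 (0.31), clathrin light chain Cltb (0.43), the syntaxin-binding Stxbp5 (0.59) and Rabac1, a Rab acceptor (0.43), rose with them, as did the postsynaptic scaffolds Dlgap1 (0.36), Dlg3 (0.49) and Ppp1r9b, which encodes spinophilin (0.34).

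Of 16 glutamate receptor genes 6 rose and 0 fell in the limma fit, with 10 not passing (median 0.12). They were Cnih2 (0.53) and Cacng2 (0.26), auxiliary subunits of AMPA receptors, the kainate subunit Grik5 (0.55), the NMDA subunits Grin2a (0.52) and Grin2c (0.29), and the metabotropic Grm3 (0.19, adjusted p = 0.0424). Grm3 lost its call on leaving out array 3, 4 or 5 of Soc P80 or array 1, 4 or 5 of Soc P60 (adjusted p from 0.0562 to 0.197), with no filter (adjusted p = 0.0601) and with the Gapdh covariate (adjusted p = 0.119). Another probe set of Cacng2 showed -0.52 and missed the threshold (adjusted p = 0.0533). In GABA receptors and their partners 3 of 11 rose and 0 fell, namely Gabarapl1 (0.32), the scaffold gephyrin, Gphn (0.27), and the delta subunit Gabrd (0.15). Beside these 3 stand 22.3% higher calls among all genes.

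Interneuron markers split. Of 16 genes 5 rose and 6 fell (median -0.13), and their summed linear signal ran from 8283 to 9102 in Soc P80 and from 8250 to 9101 in Soc P60. Pvalb, the calcium buffer of fast-spiking basket cells, had log2 signals of 7.03, 7.33 and 7.42 in Soc P80, against 6.15, 6.42 and 6.79 in Soc P60 (0.87, SE 0.098, adjusted p = 5.05e-10). Vip, a peptide of disinhibitory interneurons, had 8.74, 8.77 and 8.83 in Soc P80, against 9.04, 9.16 and 9.28 in Soc P60 (-0.38, SE 0.042, adjusted p = 3.96e-10). The groups were apart in both genes, in opposite directions. Cck rose by 0.39 (adjusted p = 1.1e-07). Kcnc2, a fast potassium channel of basket cells (-0.37), Gad1, which makes GABA (-0.16), and the transcription factor Dlx1 (-0.46) fell.

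Among 27 neuropeptide genes 7 rose and 5 fell. All genes stood at 22.3% higher and 23.8% lower, for this list and the next. Pcsk1n, an inhibitor of prohormone convertase, rose by 0.44 (adjusted p = 1.62e-11), while the VIP receptor Vipr1 (-0.52), the granule protein Scg3 (-0.28) and the somatostatin receptor Sstr1 (-0.29) fell. Of 9 genes of monoamine and acetylcholine signalling 2 fell, the monoamine oxidases Maob (-0.34, adjusted p = 2.68e-11) and Maoa (-0.18, adjusted p = 0.00212). Adra1d, an adrenergic receptor, was the 1 that rose (0.34, adjusted p = 0.017), and its call was lost with the Gapdh ratio as a covariate (adjusted p = 0.0708).

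Markers of oligodendrocytes did not move as a block. Calls among all genes were 22.3% higher and 23.8% lower. Of 28 genes of mature oligodendrocytes and myelin 10 rose and 8 fell (median 0.06), with summed linear signals of 17493 to 19531 in Soc P80 and 16813 to 19103 in Soc P60. Mag, an adhesion protein of the innermost myelin wrap, had log2 signals of 8.12, 8.15 and 8.19 in Soc P80, against 7.31, 7.44 and 7.69 in Soc P60 (0.69, SE 0.053, adjusted p = 7.81e-15). Qdpr, which regenerates tetrahydrobiopterin, rose by 0.40 and Josd2 by 0.57. The tetraspanin Tspan2 fell through both of its probe sets (-0.37 and -0.42), and Omg (-0.27) and the lineage factor Olig1 (-0.23) fell too. Of 5 tested precursor genes 3 fell and 0 rose, namely Tns3 (-0.17), Ptprz1 (-0.25) and the growth factor receptor Pdgfra (-0.18, adjusted p = 0.0233), with summed linear signals of 2039 to 2141 in Soc P80 and 2123 to 2302 in Soc P60. Pdgfra lost its call on leaving out any of arrays 1, 5 and 6 of Soc P80 (adjusted p = 0.0650, 0.0602 and 0.0544) or arrays 4 and 5 of Soc P60 (adjusted p = 0.0728 and 0.0578).

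Astrocyte and microglial markers were mixed as well, beside 22.3% higher and 23.8% lower calls among all genes. Of 26 astrocyte genes 6 rose and 7 fell (median -0.04). Vim, an intermediate filament, rose by 0.34, Clu, an extracellular chaperone, by 0.21 and the metallothionein Mt3 by 0.30. Falls were seen in the water channel Aqp4 (-0.24, with further probe sets at -0.51, which fell, and 0.09, which did not pass), the glutamate transporter Slc1a3 (-0.25) and the neurotensin receptor Ntsr2 (-0.24). In microglia 3 of 13 genes rose and 5 fell. C1qa, of the complement subunit that tags synapses, had log2 signals of 8.09, 8.12 and 8.22 in Soc P80, against 7.52, 7.55 and 7.73 in Soc P60 (0.55, SE 0.048, adjusted p = 2.62e-13), and C1qb (0.42) and Aif1 (0.39) rose with it. The purinergic receptor P2ry12 (-0.33) and the Fc receptor gamma chain Fcer1g (-0.43) fell. Summed linear signals of the lists overlapped between the groups, at 30484 to 34691 in Soc P80 and 30983 to 36062 in Soc P60 for astrocytes and at 3382 to 3812 in Soc P80 and 3630 to 4056 in Soc P60 for microglia.

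Genes of neighbouring tissue were checked because dissections of this region can include it. Beside the counts of this paragraph stand 22.3% higher and 23.8% lower calls among all genes. Of 10 choroid plexus and ependyma genes with a probe set only Ttr passed the signal filter, and it did not pass the test (-0.19, adjusted p = 0.133). Of 12 striatal and septal genes 3 rose slightly, Gng7 (0.25), Rgs9 (0.29) and Rasd2 (0.11), while Drd1 (-0.07), Penk (-0.02) and Ppp1r1b (0.01) did not pass. Their summed linear signal was 2400 to 2570 in Soc P80 and 2348 to 2488 in Soc P60. Of 10 meningeal and fibroblast genes 2 rose, among them Ptgds (0.20, adjusted p = 0.00083), and 8 did not pass (median of the list 0.06). Their summed linear signals were 1741 to 1853 in Soc P80 and 1564 to 1671 in Soc P60, which did not overlap. Bright genes weigh most in such a sum, and the share of Ptgds in it was not separated out. The part of meningeal tissue in the other differences was not tested. In blood genes Pf4 of platelets rose (0.27, adjusted p = 0.0395) and the haemoglobin chain Hbb did not pass (-0.011, adjusted p = 0.872). Pf4 lost its call on leaving out any of arrays 1 to 5 of Soc P80 or array 3, 4 or 6 of Soc P60 (adjusted p from 0.0513 to 0.0919), under quantile normalization (adjusted p = 0.101), with no filter (adjusted p = 0.0598) and with the Gapdh covariate (adjusted p = 0.160). Of 19 cortical layer genes 2 rose and 2 fell, among them Crym (0.28) and Kcnk2 (-0.47). Among 16 vascular genes 3 rose and 4 fell, including the drug transporter Slco1a4 (-0.18), the thyroid hormone transporter Slco1c1 (0.25) and the endothelial phosphatase Ptprb (-0.37).

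Genes of protein production, turnover and energy supply were more often higher in Soc P80. Of 34 proteasome genes 20 rose and 6 fell (median 0.12), against the 22.3% higher and 23.8% lower calls of all genes. Psmb1, a core beta subunit, had log2 signals of 9.47, 9.59 and 9.69 in Soc P80, against 8.87, 8.97 and 9.11 in Soc P60 (0.59, SE 0.045, adjusted p = 3.77e-15). Psma6, a core alpha subunit, had 9.78, 9.83 and 9.98 in Soc P80, against 10.15, 10.22 and 10.29 in Soc P60 (-0.38, SE 0.033, adjusted p = 4.09e-13). Subunits of the same core thus went in opposite directions without overlap. The regulatory subunits Psmc3 (0.50) and Psmd8 (0.56) rose.

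Of 39 cytosolic ribosomal protein genes 19 rose and 5 fell (median 0.12), or 2 fell with the Gapdh covariate or without array 6 of Soc P60, and the rises were led by Rps9 (0.68, SE 0.041, adjusted p = 2.57e-18), Rpl18 (0.44) and Rps15 (0.35). Of 68 genes of oxidative phosphorylation 28 rose and 8 fell (median 0.05), against 22.3% higher and 23.8% lower among all genes. Uqcrc1 of complex III (0.48, SE 0.039, adjusted p = 4.91e-14), Sdhb of complex II (0.45) and Ndufv1 of complex I (0.37) rose, and Ndufa12 of complex I fell by 0.37 (adjusted p = 3.2e-12). Of 24 glycolysis and lactate genes 10 rose and 3 fell, with the neuronal enolase Eno2 at 0.35 and the monocarboxylate transporter Slc16a1 at -0.36. Among 30 chaperones 12 rose and 3 fell. Hsp90b1, the endoplasmic reticulum Hsp90, had log2 signals of 9.16, 9.28 and 9.35 in Soc P80, against 8.50, 8.56 and 8.61 in Soc P60 (0.72, SE 0.04, adjusted p = 1.34e-19), and the chaperonin subunit Cct4 rose by 0.51. Cytoskeleton and transport genes had 11 of 28 higher and 3 lower, with the dynein heavy chain Dync1h1 (0.54), the kinesin Kif5c (0.52), Map1a (0.46) and the tubulin Tubb4a (0.58) higher and the dynactin subunit Dctn1 lower (-0.30).

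**Figure D4:**
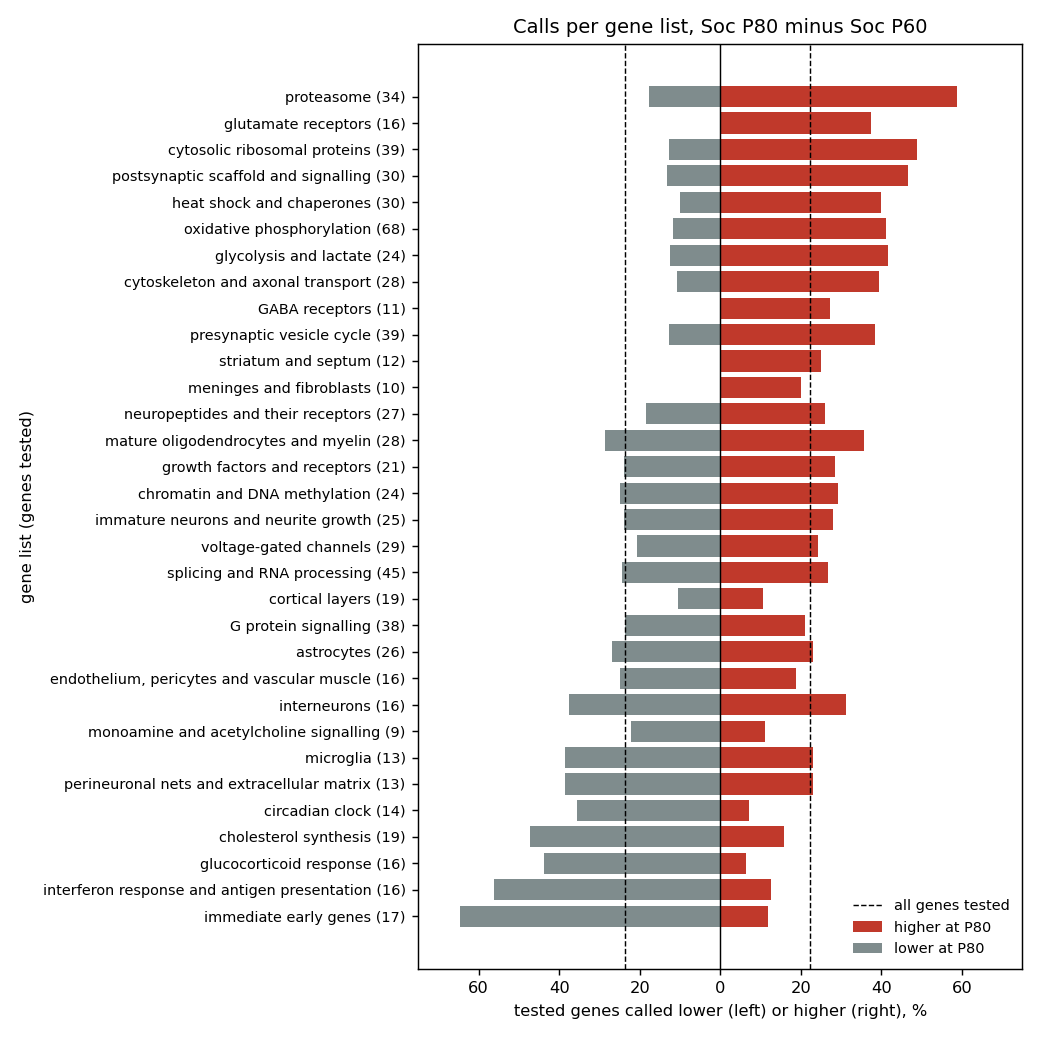
Share of tested genes called higher (red, right) or lower (grey, left) in Soc P80 against Soc P60 for 32 gene lists with 9 or more tested genes (number in brackets), with dashed lines at the shares of all 7898 genes (22.3% and 23.8%). Proteasome genes stand at the top and immediate early genes at the bottom. The lists were chosen with earlier results of these data known.

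Lists with more falls than rises included the clock, glucocorticoid and cholesterol genes, beside 23.8% lower and 22.3% higher among all genes. Of 14 clock genes 5 fell and 1 rose. The repressor Nr1d1 had log2 signals of 6.49, 6.60 and 6.78 in Soc P80, against 7.25, 7.34 and 7.43 in Soc P60 (-0.73, SE 0.075, adjusted p = 4.62e-11), and Per2 had 7.27, 7.46 and 7.60 in Soc P80, against 7.83, 7.98 and 8.06 in Soc P60 (-0.53, SE 0.058, adjusted p = 1.99e-10). Both were fully apart, and these genes cycle over the day, while the time of day of dissection is not given in the labels. Nr1d2 (-0.36), Bhlhe41 (-0.31) and Cry2 (-0.18) fell as well. Of 16 glucocorticoid-responsive genes 7 fell and 1 rose (median -0.17), among them the kinase Sgk1 (-0.39), the transcription factor Klf9 (-0.21) and Errfi1 (-0.39), with Dusp1 also on this list. Of 19 cholesterol synthesis genes 9 fell and 3 rose (median -0.16). Dhcr7, the last enzyme of one branch of the pathway, had 7.02, 7.08 and 7.16 in Soc P80, against 7.42, 7.68 and 7.81 in Soc P60 (-0.56, SE 0.059, adjusted p = 1.23e-10), and Hsd17b7 (-0.52), Msmo1 (-0.42) and Cyp51 (-0.35) fell with it.

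The remaining lists held rises and falls in similar number, as did all genes (22.3% higher and 23.8% lower). Voltage-gated channels had 7 of 29 higher and 6 lower, with the calcium channel subunit Cacna2d3 at -0.63 (adjusted p = 2.15e-16), the sodium channel subunit Scn4b at -0.43 and Kcnip3 at 0.53. In splicing and RNA processing 12 of 45 rose and 11 fell, including Hnrnpr (-0.49) and Srsf6 (0.55), and through the probe set of smallest p of each gene 20 rose. Chromatin genes had 7 of 24 higher and 6 lower, with the deacetylase Hdac5 at 0.62 and the related acetyltransferases Kat2a at 0.60 and Kat2b at -0.33. Extracellular matrix genes had 3 of 13 higher and 5 lower, with the proteoglycan Cspg5 at 0.39 and the synaptic adhesion ligand Lgi1 at -0.23. Growth factor genes had 6 of 21 higher and 5 lower, with Fgf13 at -0.36, the BDNF receptor Ntrk2 at -0.22 and Pdgfa at 0.57. In G protein signalling 8 of 38 rose and 9 fell, with Rgs7 at -0.34, and the regulatory subunits of protein kinase A, Prkar2b and Prkar2a, at -0.39 and -0.38, opposite to the catalytic subunit Prkaca at 0.21. Of 25 genes of immature neurons and neurite growth 7 rose and 6 fell, with Ncam1 at -0.36 and Marcks at -0.27.

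The step of the isolation-reared rats, which shares no sample with the social one, ran mostly the other way, with 6559 probe sets called (54.0%). Of the probe sets higher in Soc P80 than in Soc P60, 54.1% were lower in Iso P80 than in Iso P60 (1421 of 2627) and 8.60% were higher, while 26.2% of all 12149 were lower and 27.8% higher in the isolated step. Of those lower in Soc P80, 55.4% were higher in Iso P80 (1543 of 2785) and 9.55% lower. The test of the difference between the steps called 7244 probe sets (59.6%). The Gapdh 3' to 5' ratio was 1.30 to 1.40 in Iso P60 and 1.45 to 1.72 in Iso P80. In Soc its mean fell from 2.03 at P60 to 1.89 at P80. With that ratio as a covariate the difference test called 6574, of which 5971 were among the 7244. The isolated step then had 5824 calls, of which 5229 were among the 6559. The part of RNA quality in the opposite course was not tested further. Across the 12149 probe sets the differences of both steps had a Pearson correlation of -0.41 and a Spearman correlation of -0.45, given as a description across probe sets, which are not independent. As Soc P60 lay nearest to Iso P80, these counts and correlations depend on the labels of those groups being right.

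Arc stood for the opposite course. In Soc it fell by 0.81, and in Iso it had log2 signals around a mean of 7.95 at P80 and 7.64 at P60, a rise of 0.30 (isolated minus social step 1.11, SE 0.052, adjusted p = 1.4e-21). Epn1, which rose by 1.32 in Soc, fell by 1.17 in Iso, with means of 6.55 in Iso P80 and 7.72 in Iso P60 (isolated minus social step -2.48, adjusted p = 2.9e-21). Among the 15 probe sets with 1 gene symbol and the smallest p of this test, the synaptic vesicle GTPase Rab3a rose by 0.49 in Soc and fell by 0.75 in Iso, the phosphatase scaffold Ppp2r1a by 0.39 and 0.56, Grina by 0.49 and 0.49, the calcium sensor Vsnl1 by 0.17 and 0.68 through one of its probe sets, and the actin regulator Cyfip2 by 0.27 and 0.72. The brighter probe set of Vsnl1 rose in Iso by 0.20 (adjusted p = 0.00076) and did not pass in Soc (0.11). That of Rab3a rose in Soc (0.32) and did not pass in Iso (-0.11, adjusted p = 0.064). That of Cyfip2 fell in Iso (-0.21) and did not pass in Soc (-0.015, adjusted p = 0.854). Rapgef5, Rap1gap2, Coa5 and Id2 fell in Soc, by 0.69, 0.52, 0.68 and 0.63, and rose in Iso, by 0.36, 0.40, 0.35 and 0.35. By list, 11 of 17 immediate early genes and 10 of 16 interferon genes rose in Iso with 0 falling in either. Of 34 proteasome genes 18 fell and 7 rose in Iso. Among all 7898 genes by their brightest probe set, 28.5% were higher and 23.8% lower in the isolated step.

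**Figure D5:**
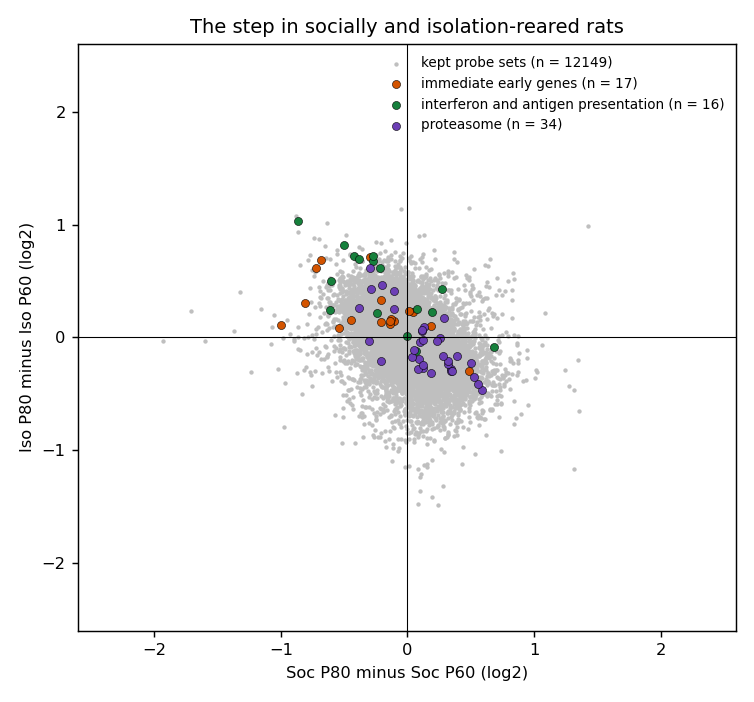
Difference between P80 and P60 in isolation-reared rats (vertical axis, log2) against that in socially reared rats (horizontal axis, log2) for 12149 probe sets (grey), with the immediate early (orange, 17), interferon (green, 16) and proteasome genes (purple, 34) marked. The cloud runs from upper left to lower right, with a Pearson correlation of -0.41.

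Fewer probe sets moved the same way under both rearings. Those higher in both steps numbered 226, which was 8.6% of the 2627 higher in Soc and 6.68% of the 3381 higher in Iso. Those lower in both numbered 266, which was 9.55% of the 2785 lower in Soc and 8.37% of the 3178 lower in Iso. The ones named here were taken after their values were seen, among those with the largest difference in the weaker of their steps. Anp32a rose by 1.43 in Soc and 0.99 in Iso, the palmitoyltransferase Zdhhc20 by 0.65 and 0.70, the adhesion molecule Cadm1 by 0.62 and 0.64, the acetyltransferase subunit Naa15 by 0.71 and 0.53, and Camk2a by 0.65 and 0.45. Acer2 fell by 0.83 in Soc and 0.50 in Iso and the phosphatase Ptpn1 by 0.51 and 0.51. Of these, Anp32a and Camk2a differed between the steps (adjusted p = 0.0055 and 0.0012), while Zdhhc20, Cadm1, Naa15, Acer2 and Ptpn1 did not pass that test (adjusted p = 0.786, 0.866, 0.211, 0.0754 and 0.991).

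The place of P60 and P80 among all 4 social ages was as follows. Among probe sets called higher in Soc P80, P60 was the lowest age in 71.7% and P80 the highest in 59.4%. Among those called lower, P60 was the highest age in 75.5% and P80 the lowest in 56.9%. Among those lower by over 0.5, P60 was the highest age in 76.8% and P80 the lowest in 86.8%. Over all 12149 probe sets P60 was the highest age in 32.1% and the lowest in 28.3%, and P80 in 24.7% and 24.7%. The call fixes that P60 lies below or above P80, so these shares are given as a description. Epn1 had mean log2 signals of 7.65, 7.70, 6.22 and 7.54 at P30, P40, P60 and P80, and Mag 8.63, 8.61, 7.46 and 8.15, each with its low at P60. Slc3a1, at 9.08, 8.71, 9.43 and 8.19, and Nat8f3, at 6.72, 6.83, 7.71 and 6.66, had their high there. Mobp differed, with 9.78, 9.51, 9.48 and 8.59, a low at P80.

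Over the 8 group means, the genes most like Anp32a were Camk2a (Pearson correlation 0.93), Nos1ap (0.91), Mrrf (0.91), Umps (0.89) and Dlg4 (0.89). Those most like Slc3a1 were Pptc7 (0.97), Marcks (0.95), Phf23 (0.93), Tbc1d19 (0.93) and Smndc1 (0.92). With 8 points, and the same libraries behind each gene, these values describe likeness alone. Each gene entered through its probe set of smallest p in the social step. For Dlg4 that was the one that rose (0.82), with its other at -0.28. For Marcks it was one at -0.63, while its brightest showed -0.27.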

How the data were processed

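RNA was hybridised to 1-colour Affymetrix arrays. The deposited values are log2 signals of 20304 probe sets, made with MAS5 according to the labels' processing tools. The arrays' 2% trimmed mean signals were alike (156.59 to 161.44), so no further normalization was applied. A second table deposited by the authors, which numbers probe sets passing their filters, was not used for tests. Arrays 3 and 4 of Iso P30 differed by less than other pairs (distance 0.116, others 0.175 or more) and were counted as 1 sample. Probe sets with a mean at or above the 40th percentile of non-control probe sets (5.72) were kept, 12149 of 20249. Symbols came from the platform annotation, with 14607 probe sets naming 1 gene, 326 several and 5316 none, and 14561 matched the GRCr8 gene table.

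Group means of 8 groups over 46 samples were fitted with limma 3.58.1 (R 4.3.3), with trended variances and 38 residual degrees of freedom, two-sided, Benjamini-Hochberg adjusted at 0.05. List counts use the brightest probe set of each gene. The 35 lists and all members were chosen with earlier results of these data known. Named are the 25 largest rises and falls through the probe set of smallest p, up to 6 members of a list by p, any immediate early, interferon, choroid plexus or striatal gene, the 15 smallest p of the difference between steps, and the 5 genes most like the largest rise and fall. In simulated data for this comparison (12149 probe sets, 200 changed) the fit recovered 43.3% of 1.2-fold, 95.5% of 1.5-fold and 95.5% of 2-fold changes, with 5 false among 161 calls. The simulated noise was independent between probe sets and arrays, with no shift shared by a group. These rates therefore do not extend to the calls of the real step. Alternatives were quantile normalization, no filter or the 60th percentile, an offset of 32, only the groups compared, all 47 arrays, a replicate block, an untrended prior, a Gapdh covariate and leaving out each array. The number of arrays limits the precision. Plots used matplotlib 3.10.9 with Python 3.11.15.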

Additional observations from a re-analysis of the deposited data

Results flagged for a closer look

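Single arrays stood far from the other 5 of their group in 42 of 402 groups of 6 values, and chance alone sets apart about 1 in 20 groups. Array 6 held 8 of them in Soc P80 and 11 in Soc P60. Values are log2 signals. Array 1 of Soc P80 was high in Tspan2 (9.13) and low in Adra1d (6.13), Cltb (9.10), Fis1 (8.51), Prkar2a (7.75) and Pvalb (7.03). Array 2 of Soc P80 was low in Klf10 (7.31) and Parp14 (5.32). Array 3 of Soc P80 was high in Mobp (8.78) and low in Nat8f3 (6.38). Array 4 of Soc P80 was high in Prkaca (8.85) and low in Acer2 (4.87). Array 6 of Soc P80 was high in B2m (10.27), Gabrd (8.22), Psma6 (9.98) and Slc1a3 (11.19) and low in Maoa (7.59), Ptgs2 (7.23), Ptprz1 (8.54) and Thoc2 (6.87). Array 1 of Soc P60 was high in C1qa (7.73) and Slco1c1 (8.37) and low in Junb (4.99). Array 2 of Soc P60 was high in Kcnc2 (9.54). Array 3 of Soc P60 was high in Cct4 (9.69) and Dlg4 (8.35). Array 4 of Soc P60 was low in Rsad2 (5.15). Array 5 of Soc P60 was high in Slc3a1 (9.50) and low in Cyfip2 (8.10), Grm3 (7.07) and Tiparp (7.31). Array 6 of Soc P60 was high in Cck (10.88), Crym (10.19), Eno2 (11.26), Mt3 (11.23) and Ptgds (9.67) and low in Cdh22 (5.42), Fcer1g (8.42), Ier5 (9.03), Klf2 (6.69) and Ptprz1 (8.81). The Gapdh 3' to 5' ratio of array 6 of Soc P60 was high, at 2.33.

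The step from P60 to P80 differed between the rearings in 7244 of 12149 probe sets (59.6%) by the limma test of the difference. Among them were those of 172 of the 196 named genes. Many of these genes were taken for their social step, and some for this very test, so that count supports nothing further. The isolated minus social difference (log2) was positive in Rapgef5 (1.05), Arc (1.11), Coa5 (1.03), Rap1gap2 (0.92) and Id2 (0.98). It was negative in Rab3a (-1.24), Ppp2r1a (-0.95), Grina (-0.98), Epn1 (-2.48), Vsnl1 (-0.85), Dync1h1 (-0.83), Camk2n1 (-1.70 through one probe set) and Cyfip2 (-0.99). The other probe set of Camk2n1 showed the opposite, with -0.23 in the social step and 0.31 in the isolated one. The values of Rab3a, Vsnl1 and Cyfip2 are those of the dimmer probe set of each gene.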

How the results depend on the processing

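The count of called probe sets, 5412, lay between 4331 (60th percentile filter) and 6067 (replicate block) over 9 alternatives, and between 5089 and 5241 on leaving out each of the 12 arrays. Called differences over 0.5 log2 numbered 595, against 1039 with no filter on low signals, 366 with the 60th percentile filter and 267 on log2(signal + 32), settings that change which probe sets are tested or shrink low signals by construction. With the replicate number as a block 6067 were called, Grm3 lost its call (adjusted p = 0.0568), and Jun (adjusted p = 0.0105) and Ptgs2 (adjusted p = 0.0305) gained one. Between Soc P80 and Soc P60, deviations of same-numbered arrays correlated at -0.070 to 0.218, and array 6 alone matched its own number best. The numbers thus gave no pairing of the samples as a whole. Array 6 had the highest Gapdh ratio in each of these groups, 2.04 in Soc P80 and 2.33 in Soc P60. Whether array 6 of the groups shared a batch was not tested. Of genes not called, some turned sign. With the Gapdh ratio as a covariate Bst2 was at 0.040, Hbb at 0.059 and Ppp1r1b at -0.037. On leaving out single arrays Homer1, through its brightest probe set, ran from -0.0085 to 0.043, and Ifitm3 from -0.00036 to 0.152. Bst2 ran from -0.0653 to 0.031, Hbb from -0.034 to 0.024, Penk from -0.049 to 0.0043 and Ppp1r1b from -0.040 to 0.065. Of list counts, lower interferon genes numbered 2 with the 60th percentile filter, lower postsynaptic genes 7 with quantile normalization, the replicate block or the probe set of smallest p, lower oxidative phosphorylation genes 13 with the replicate block, and lower ribosomal genes 2 with the Gapdh covariate or without array 6 of Soc P60. The single rising clock gene numbered 0 to 3 over the settings.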
